A study of Homo sapiens with 2 samples.

Results

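The integrated stress response and the amino acid transport that goes with it were examined in RKO cells through 10 genes. They are the transcription factors ATF4, ATF3, DDIT3 and CEBPB, the effectors TRIB3, CHAC1 and ASNS, and the transporter subunits SLC7A5, SLC3A2 and SLC7A11. The genes were listed by name, and every probe set that the array annotation assigns to 1 of these symbols and to no other gene was used. That rule gave 16 of the 54675 probe sets on the array, for 10 of 19775 genes with a probe set of their own. ATF3 and SLC7A11 had 3 probe sets each, TRIB3 and ASNS had 2 each, and the other 6 genes had 1.

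RKO is an established human colon cancer cell line. In the knockdown culture the cells carried a short hairpin against the L form of BCLAF1, a nuclear protein of RNA processing (sh-BCLAF1-L; the design text names it hairpin #1). In the control culture they carried a hairpin against luciferase (sh-Luci), a gene that human cells lack. Both hairpins were delivered by retrovirus, the medium was changed at 24 h, and the cells were selected in 2 µg/ml puromycin for 72 to 96 h before RNA was taken, so infection and puromycin are common to the groups. Each group is 1 culture on 1 array: no replicate spread, test or p-value exists for any value below, and hairpin, culture and array cannot be told apart. Nor can fewer cells with a transcript be told from less of it per cell in such bulk RNA.

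The integrated stress response begins when kinases that sense amino acid shortage, misfolded proteins in the endoplasmic reticulum, double-stranded RNA or haem shortage phosphorylate the translation initiation factor eIF2. General translation then drops while the mRNA of ATF4 is translated better. ATF4 pairs with other basic leucine zipper (bZIP) factors and switches on genes for amino acid synthesis, amino acid import and stress signalling, and DDIT3 (CHOP) can turn a prolonged response towards cell death. An expression array reads mRNA only, so eIF2 phosphorylation and ATF4 protein were not measured.

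The stress response genes were expressed on both arrays and showed no common shift in the sh-BCLAF1-L cells. All 10 genes were detected. On their brightest probe sets 5 differed upwards and 5 downwards. The median log2 difference (sh-BCLAF1-L minus sh-Luci) on these was -0.0064, beside 0.019 over the 14507 detected genes. The even split depends on the choice of probe set. Over all 14 detected probe sets, several from the same gene, 5 differed upwards and 9 downwards, with a median of -0.03. No gene reached 1.5-fold in either direction, a size that 0.434% of all detected genes reached upwards and 0.2% downwards. At a log2 difference of 0.32, a 5 to 4 ratio, CEBPB was higher, and SLC7A5 and CHAC1 were lower. That is 1 of 10 genes higher and 2 of 10 lower, where 4.16% of all detected genes were higher and 2.21% lower by this size. From the lowest to the highest, the order of the differences was SLC7A5, CHAC1, SLC3A2, TRIB3, DDIT3, ATF3, ATF4, SLC7A11, ASNS and CEBPB. From SLC3A2 to ASNS, 7 genes lay within 0.16 of 0, the SD between probe sets of the same gene, and their places in that order carry no weight. Of all detected genes, 69.0% lay within the same band.

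Differences were taken on log2(intensity + 1), so that -1 is a 2-fold lower value. A gene was represented by its brightest probe set and called detected when its mean was at or above the 40th percentile of the 54675 probe sets, an intensity of 63.7. The only measure of error these arrays offer is the disagreement between probe sets of the same gene. Its pooled SD over 6752 genes with several detected probe sets was 0.16, or 1.12-fold. It holds no spread between cultures, infections or arrays. A difference beyond 2 such SDs was seen in 3 of the 10 genes (SLC7A5, CHAC1 and CEBPB) and in 6.63% of all detected genes. Each of these 3 genes had a single probe set, so the disagreement could not be read from the gene itself.

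Checks of the whole arrays set the frame. The targeted BCLAF1 was lower in the sh-BCLAF1-L cells on 6 of its 6 probe sets, by 1.43-fold to 2.96-fold. On the brightest it was 2.65-fold lower (945 in sh-BCLAF1-L cells against 2505 in sh-Luci cells). The biotin spike-ins, which are added to the labelled RNA and not made by the cells, were higher on the sh-BCLAF1-L array on 18 of 18 probe sets, with a median difference of 0.20. These probe sets repeat a few spiked transcripts and are not 18 separate readings. The 3' to 5' signal ratio of ACTB was 3.81 on the sh-BCLAF1-L array and 3.41 on the sh-Luci array, and that of GAPDH was 1.49 on the sh-BCLAF1-L array and 1.38 on the sh-Luci array. The part of these array differences in the gene values was not tested. Of 12 epithelial and colon markers, 8 were detected. EPCAM read 472 in sh-BCLAF1-L cells and 477 in sh-Luci cells, and KRT18 read 674 in sh-BCLAF1-L cells and 979 in sh-Luci cells. The other 6 detected markers were dimmer and all differed upwards, but the direction of VIL1 carries no weight. VIL1 read below the detection limit in sh-Luci cells and was called detected through its higher sh-BCLAF1-L value. The filter therefore favoured an upward difference for VIL1. CDX1 read 191 in sh-BCLAF1-L cells and 183 in sh-Luci cells, and GPA33 147 in sh-BCLAF1-L cells and 119 in sh-Luci cells. KRT8, MUC2, CDX2 and VIL1 read 97.6, 93.9, 77.3 and 67.5 in sh-BCLAF1-L cells, against 96.0, 87.5, 67.4 and 61.1 in sh-Luci cells. CDH1, KRT19, CDH17 and LGR5 lay below the detection limit. Of 13 measured blood, endothelial and fibroblast markers, 7 were detected and PTPRC, CD14, CDH5, TEK, COL3A1 and PDGFRB were not. Of the 7, COL1A1 read 397 in sh-BCLAF1-L cells and 355 in sh-Luci cells, HBB 226 in sh-BCLAF1-L cells and 196 in sh-Luci cells, VWF 194 in sh-BCLAF1-L cells and 177 in sh-Luci cells, PECAM1 119 in sh-BCLAF1-L cells and 119 in sh-Luci cells, and CD3E 111 in sh-BCLAF1-L cells and 135 in sh-Luci cells. DCN and COL1A2 read 95.7 and 71.9 in sh-BCLAF1-L cells, against 96.2 and 67.0 in sh-Luci cells. The source of these signals was not tested.

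**Figure D1:**
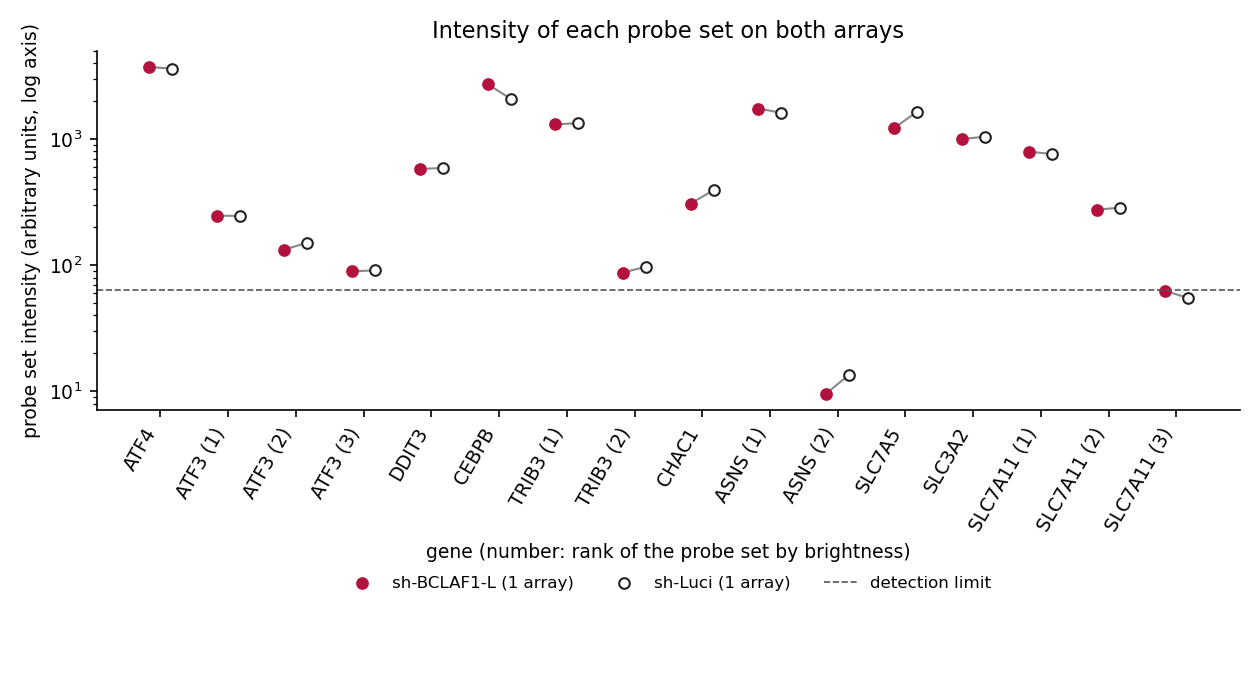
Intensity (arbitrary units, log axis) of each of the 16 probe sets on the sh-BCLAF1-L array (filled, left) and the sh-Luci array (open, right), 1 array each; the dashed line is the detection intensity of 63.7. Most lines are nearly flat, CEBPB is visibly higher in the sh-BCLAF1-L cells, SLC7A5 and CHAC1 are lower, and the dimmest probe sets of ASNS and SLC7A11 lie below the limit.

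Among the transcription factors, ATF4, the factor at the centre of the response, read 3734 in sh-BCLAF1-L cells and 3636 in sh-Luci cells. Its log2 difference was 0.04, a small part of the SD between probe sets. DDIT3, also named CHOP, is a bZIP factor induced by ATF4 in prolonged stress, and it read 581 in sh-BCLAF1-L cells and 591 in sh-Luci cells, a difference of -0.02. ATF3, a stress-induced factor that forms dimers with other bZIP proteins, read 248 in sh-BCLAF1-L cells and 246 in sh-Luci cells on its brightest probe set, a difference of 0.01. Its second probe set read 133 in sh-BCLAF1-L cells and 151 in sh-Luci cells, a difference of -0.18, and its dimmest read 89.7 in sh-BCLAF1-L cells and 91.1 in sh-Luci cells, a difference of -0.02. The 3 probe sets of ATF3 therefore spread over both sides of 0.

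CEBPB, a C/EBP family factor that dimerises with ATF4 and also serves inflammatory and differentiation programmes, stood apart from the other 3. It read 2730 in sh-BCLAF1-L cells and 2098 in sh-Luci cells, a 1.30-fold higher value (log2 difference 0.38). A difference this high or higher was seen in 332 of the 14507 detected genes (2.29%). Among the 1630 genes within 2-fold of its brightness the share was 0.920%. The difference of CEBPB exceeded that of ATF4 by 0.34 and that of DDIT3 by 0.40 on the log2 scale.

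**Figure D2:**
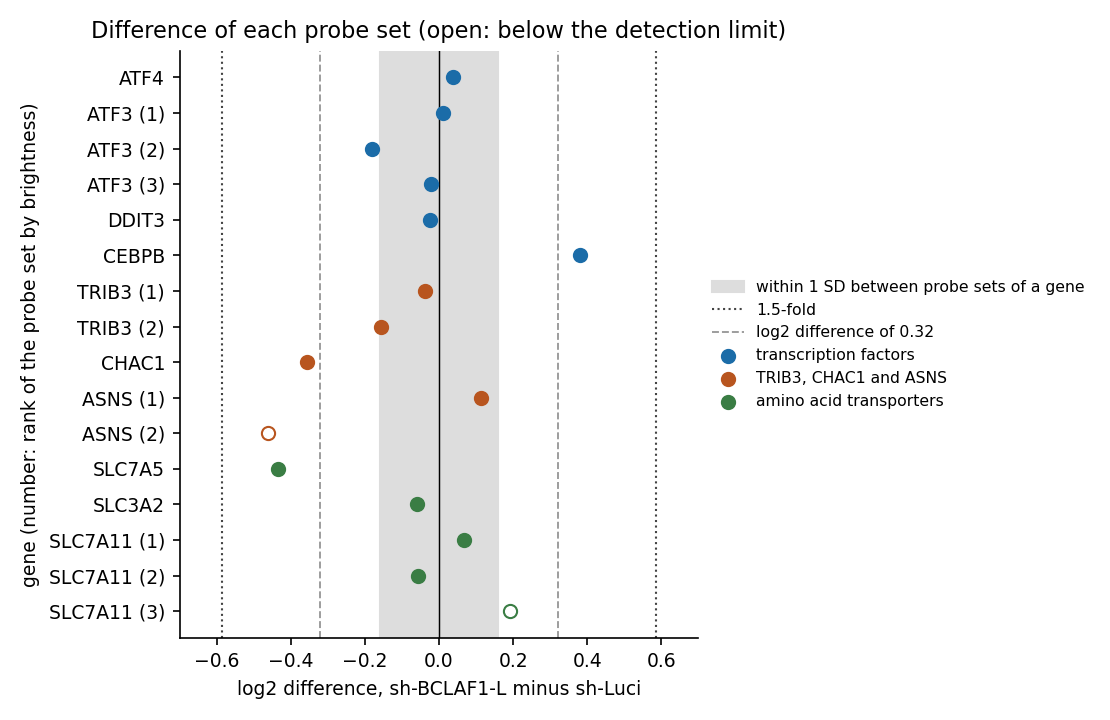
Log2 difference (sh-BCLAF1-L minus sh-Luci) of each probe set by role, with open circles for the 2 probe sets below the detection limit. The grey band marks 0.16 on each side of 0, dashed lines 0.32 and dotted lines 1.5-fold; CEBPB lies beyond the dashed line to the right, SLC7A5, CHAC1 and the undetected ASNS probe set beyond it to the left, and no probe set reaches 1.5-fold.

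The effectors split. TRIB3, a pseudokinase that binds ATF4 and dampens it, read 1309 in sh-BCLAF1-L cells and 1343 in sh-Luci cells on its brighter probe set, a difference of -0.04. Its dimmer probe set read 87.4 in sh-BCLAF1-L cells and 97.6 in sh-Luci cells, a difference of -0.16. ASNS, the enzyme that makes asparagine from aspartate, read 1751 in sh-BCLAF1-L cells and 1619 in sh-Luci cells, a difference of 0.11. The other ASNS probe set lay far below detection, at 9.60 in sh-BCLAF1-L cells and 13.6 in sh-Luci cells, and its difference of -0.46 rests on values near the floor of the arrays. With the median over both probe sets, ASNS turned to -0.17, so its direction depends on whether that dim probe set is used.

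CHAC1, a cytosolic enzyme that breaks down glutathione, was lower. It read 309 in sh-BCLAF1-L cells and 395 in sh-Luci cells, 1.28-fold lower, with a log2 difference of -0.36. A difference this low or lower was seen in 229 detected genes (1.58%), and in 1.38% of the 5796 genes within 2-fold of its brightness. The difference of ASNS exceeded that of CHAC1 by 0.47, and CHAC1 minus ATF4 was -0.39. CHAC1 was thus lower while the ATF4 targets TRIB3 and ASNS, like ATF4 mRNA itself, lay within the SD between probe sets.

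The promoters were searched for the element through which ATF4 acts. ATF4 with a C/EBP partner binds a composite site, the C/EBP-ATF response element (CARE), searched here as TGATGNAA on both strands of the RefSeq windows (build GRCh38.p14) that run from 250 bases before to 50 bases after a transcript start. Of the 10 genes, 9 had such a window, 18 windows in all; SLC7A11 had none in the table used. A CARE match was present in 4 of the 9 genes, namely ATF3, CHAC1, ASNS and SLC3A2, and in 4.46% of the 27305 genes in the table (3.62% of 35116 windows). TRIB3, the remaining effector, had none in its 3 windows. The full cyclic AMP response element TGACGTCA was in none of the 18 windows and in 1.85% of all windows. The windows of CHAC1 (chr15:40953221-40953520, plus strand) and ASNS (chr7:97872359-97872658, minus strand) are shown whole, because these are the stress effectors with a match whose differences were furthest apart, and the CARE match is in capitals.
CHAC1: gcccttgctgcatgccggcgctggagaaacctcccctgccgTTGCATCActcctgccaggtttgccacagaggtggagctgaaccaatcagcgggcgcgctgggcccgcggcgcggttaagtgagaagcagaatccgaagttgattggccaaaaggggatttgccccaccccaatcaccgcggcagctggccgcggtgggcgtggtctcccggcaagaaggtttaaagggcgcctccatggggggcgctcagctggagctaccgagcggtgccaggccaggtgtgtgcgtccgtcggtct
ASNS: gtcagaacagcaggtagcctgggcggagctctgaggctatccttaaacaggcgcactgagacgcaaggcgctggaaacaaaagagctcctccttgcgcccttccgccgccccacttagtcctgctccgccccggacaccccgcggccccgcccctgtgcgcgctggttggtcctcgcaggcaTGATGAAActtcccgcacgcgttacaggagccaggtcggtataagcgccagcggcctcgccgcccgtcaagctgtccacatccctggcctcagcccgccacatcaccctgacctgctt
In CHAC1 the match is on the reverse strand, as TGATGCAA, and its first printed base is at -209 from the start. In ASNS it is on the forward strand, as TGATGAAA, at -68.

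The other matches are shown with up to 11 bases on each side. That of ATF3 begins at -191 in 1 of its 2 windows (chr1:212565157-212565456, plus strand). That of SLC3A2 begins at base 38 of the transcript in 1 of its 3 windows (chr11:62881449-62881748, plus strand) and is read on the reverse strand.
ATF3: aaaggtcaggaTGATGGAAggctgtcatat
SLC3A2: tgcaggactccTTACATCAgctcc
Of the genes with a match, CHAC1 alone lay beyond the SD between probe sets, so no direction of the RNA could be tied to a match. CHAC1 (-0.36) was lower, whereas ASNS (0.11), ATF3 (0.01) and SLC3A2 (-0.06) lay within the SD between probe sets. SLC7A5 and CEBPB, with differences of -0.43 and 0.38, had no match in their windows. A match describes the letters of the window and not binding, and elements in introns or further upstream lie outside these windows.

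The transporter subunits belong to heterodimers in which SLC3A2 (4F2hc, CD98) is the heavy chain that carries a light chain to the cell surface. SLC7A5 (LAT1) is the light chain that imports leucine and other large neutral amino acids, and SLC7A11 (xCT) is the light chain that imports cystine in exchange for glutamate. SLC7A5 read 1222 in sh-BCLAF1-L cells and 1652 in sh-Luci cells, 1.35-fold lower, with a log2 difference of -0.43. This was the lowest difference of the 10 genes. A value this low or lower was seen in 116 detected genes (0.800%), and in 0.488% of the 2869 genes within 2-fold of its brightness. The SLC7A5 probe set has an _s_at name, which marks probes that can match several transcripts, as do those of SLC3A2 and the brighter one of ASNS. The RefSeq gene table lists 2 pseudogenes of SLC7A5, 5 of ASNS and 4 of ATF4, and their share in the signals was not tested.

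The heavy chain differed little. SLC3A2 read 1004 in sh-BCLAF1-L cells and 1046 in sh-Luci cells, a difference of -0.06, and SLC7A5 minus SLC3A2 was -0.38. SLC7A11 read 798 in sh-BCLAF1-L cells and 761 in sh-Luci cells on its brightest probe set, a difference of 0.07. Its second probe set read 276 in sh-BCLAF1-L cells and 287 in sh-Luci cells, a difference of -0.06. Its dimmest read 63.0 in sh-BCLAF1-L cells and 55.0 in sh-Luci cells, just below the detection limit, with a difference of 0.19. The 3 transporter genes ranged over 0.50 on the log2 scale, with a median of -0.06. The other 7 genes ranged over 0.74, with a median of 0.01. Neither group shared a direction, and the genes beyond 0.32 came 1 from each role: SLC7A5, CHAC1 and CEBPB.

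**Figure D3:**
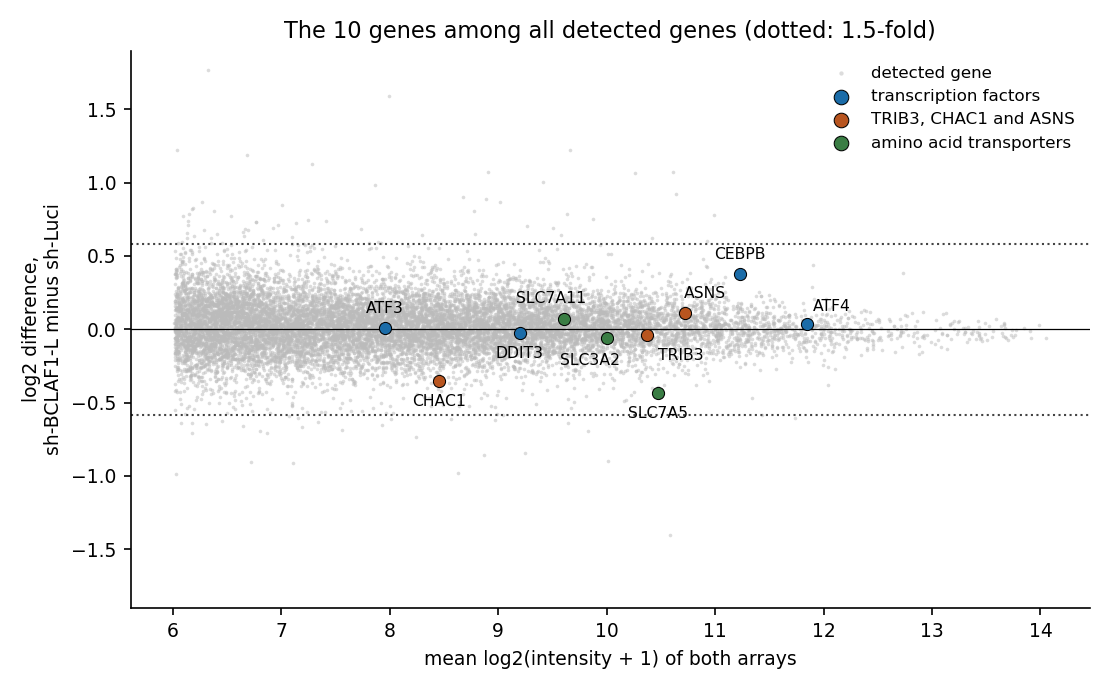
Log2 difference (sh-BCLAF1-L minus sh-Luci) against the mean log2(intensity + 1) of both arrays for the 14507 detected genes (grey), with the 10 genes coloured by role and dotted lines at 1.5-fold. SLC7A5, CHAC1 and CEBPB lie at the edge of the grey cloud at their brightness, and the other 7 lie inside it near 0.

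Around these genes, 158 further genes of the pathway were read in 9 lists, and 137 of them were detected. Their median difference was 0.0060, with 72 above 0 and 65 below. Of all detected genes, 54.6% lay at or above 0.0013. None reached 1.5-fold in either direction. At a log2 difference of 0.32, 2 were higher (1.46%) and 6 were lower (4.38%), beside 4.16% and 2.21% of all detected genes. The 2 higher genes were the transporters SLC38A1 and SLC7A3, and the 6 lower genes were FOSL1, GDF15, SLC38A6, GGCT, FGF21 and VARS1. GDF15 and FGF21 read below the detection intensity of 63.7 in sh-BCLAF1-L cells and passed the filter through their higher sh-Luci values, so the filter favoured a low difference for them and their calls support nothing. Within 0.16 of 0 lay 72.3% of the 137, beside 69.0% of all detected genes.

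The other amino acid transporters spread to both sides. Of 31 listed, 25 were detected, 14 above 0 and 11 below, with a median of 0.04. SLC38A1, a sodium-coupled glutamine transporter, read 4450 in sh-BCLAF1-L cells and 3290 in sh-Luci cells, a difference of 0.44, and its 3 detected probe sets ran from 0.10 to 0.44. SLC38A6, an orphan of the same family, read 191 in sh-BCLAF1-L cells and 264 in sh-Luci cells, a difference of -0.46 on 1 probe set. SLC7A3, a cationic amino acid transporter, was dim at 81.9 in sh-BCLAF1-L cells and 64.3 in sh-Luci cells, a difference of 0.34. SLC36A4 differed by 0.27 on its brightest probe set and by -0.40 on the other, so it has no direction. SLC38A7 differed by -0.26, with detected probe sets from -0.41 to -0.02, and SLC7A2 by 0.21.

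Further light chains of SLC3A2 were looked up after the values above were seen. SLC7A6 (y+LAT2) read 892 in sh-BCLAF1-L cells and 1025 in sh-Luci cells, a difference of -0.20, and its 3 probe sets ran from -0.38 to -0.17. SLC7A7 and SLC7A8 differed by 0.17 and 0.10, and SLC7A10 was below the detection limit. The transporters SLC1A5, SLC7A1 and SLC38A2, which ATF4 is also known to induce, differed by -0.05, 0.08 and 0.04. The 5 probe sets of SLC7A1 ran from -0.03 to 0.08.

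The signalling layer above ATF4 lay about as close to 0 as all detected genes did. The list held eIF2, its kinases, its exchange factor eIF2B, its phosphatase subunits, and IMPACT and DNAJC3, which restrain eIF2 kinases. All 16 genes were detected, with a median of 0.0095, and none reached 0.32 in either direction. By this size, 4.16% of all detected genes were higher and 2.21% lower, so a count of none in 16 genes says little. Of the 16, 11 lay within the SD between probe sets, beside 69.0% of all detected genes. EIF2S3, the gamma subunit of eIF2, differed by -0.24 on its brightest probe set and by -0.17 and 0.08 on the others. EIF2B2 differed by 0.24. PPP1R15A (GADD34), the stress-induced subunit that directs eIF2 dephosphorylation, read 877 in sh-BCLAF1-L cells and 1031 in sh-Luci cells, a difference of -0.23, with -0.21 on its other probe set. EIF2AK3 (PERK, the kinase of endoplasmic reticulum stress) differed by 0.21 and EIF2AK2 (PKR, the kinase of double-stranded RNA and itself inducible by interferon) by -0.17. The 3 probe sets of EIF2AK2 ran from -0.17 to 0.03. EIF2B3 differed by 0.13.

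The bZIP partners of ATF4 had a median of -0.01 over 19 detected genes. FOSL1, an AP-1 subunit, read 699 in sh-BCLAF1-L cells and 988 in sh-Luci cells, a difference of -0.50, the lowest of the detected genes in the 9 lists. XBP1, the factor of the IRE1 arm of the unfolded protein response, differed by 0.23. CREB1 differed by 0.20 on its brightest probe set and by -0.12 to 0.30 over its 7 probe sets. BATF3, JDP2 and CEBPA differed by -0.14, 0.13 and -0.10.

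**Figure D4:**
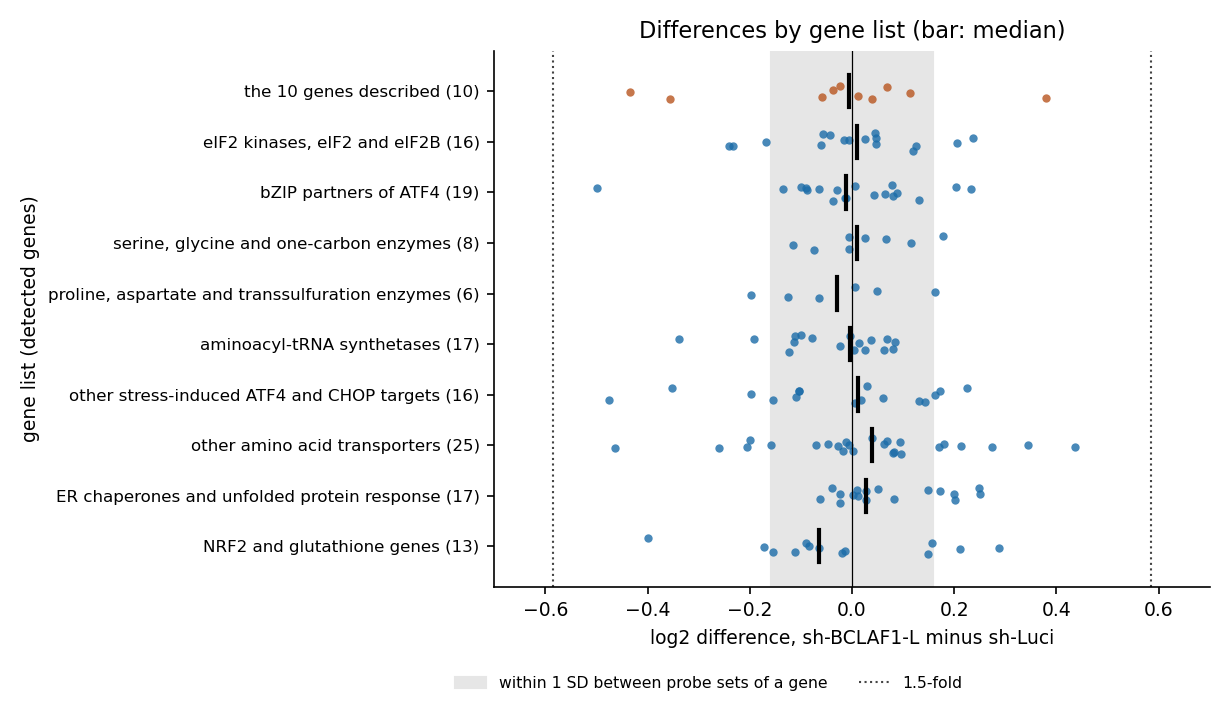
Log2 difference (sh-BCLAF1-L minus sh-Luci) of every detected gene in the list of 10 genes (orange) and in 9 other pathway lists (blue), with a black bar at each median, the grey band at 0.16 on each side of 0 and dotted lines at 1.5-fold. All medians lie between -0.064 and 0.04, and no gene reaches a dotted line.

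The biosynthetic targets of ATF4 had medians close to 0. The serine, glycine and one-carbon enzymes had a median of 0.0097 over 8 detected genes, and none reached 0.32 in either direction. By this size, 4.16% of all detected genes were higher and 2.21% lower. Within 0.16 of 0 lay 7 of the 8, beside 69.0% of all detected genes. PSAT1, the aminotransferase of serine synthesis, read 2036 in sh-BCLAF1-L cells and 1799 in sh-Luci cells, a difference of 0.18, while its other probe set gave -0.0031. MTHFD1L, MTHFD1, PSPH, GCAT and PHGDH differed by 0.12, -0.12, -0.08, 0.07 and 0.02. The proline, aspartate and transsulfuration enzymes had a median of -0.03 over 6 genes, from CBS at -0.20 to CTH at 0.16, with PYCR1 at -0.13, GOT1 at -0.07, ASS1 at 0.05 and ALDH18A1 at 0.0068. The other ALDH18A1 probe set gave -0.09. The 17 aminoacyl-tRNA synthetases, which charge tRNAs and several of which ATF4 induces, had a median of -0.0046. VARS1 read 283 in sh-BCLAF1-L cells and 357 in sh-Luci cells, a difference of -0.34, but its second probe set gave 0.06. TARS1, WARS1, RARS1, LARS1 and SARS1 differed by -0.19, -0.12, -0.11, -0.11 and -0.10. The 4 probe sets of LARS1 ran from -0.12 to 0.05.

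Of the other stress-induced targets of ATF4 and CHOP, 16 of 20 were detected, with a median of 0.01. The lowest were the secreted factors GDF15 and FGF21, which passed the filter through their sh-Luci values alone. GDF15, a stress cytokine, read 55.9 in sh-BCLAF1-L cells and 78.1 in sh-Luci cells, a difference of -0.48, and the median over its 3 probe sets was -0.09. FGF21, a metabolic hormone, read 57.4 in sh-BCLAF1-L cells and 73.5 in sh-Luci cells, a difference of -0.35 on its only probe set. ERO1A, an oxidase of the endoplasmic reticulum, differed by 0.23, MAP1LC3B by -0.20, WIPI1 by 0.17 and ADM2 by 0.16. The 3 probe sets of ERO1A ran from 0.0095 to 0.23.

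The chaperone arm of endoplasmic reticulum stress gave a median of 0.03 over 17 detected genes, with 13 above 0 and 4 below. Of all detected genes, 54.6% lay at or above 0.0013. On the brightest probe sets none of the 17 lay beyond 0.32, where 4.16% of all detected genes were higher and 2.21% lower. Other detected probe sets of HSP90B1, PDIA4 and CANX gave 0.55, 0.33 and 0.33, against 0.0028, 0.01 and -0.06 on their brightest. Detected probe sets disagreed in other lists too, in both directions. ATF5 gave 0.09 on its brightest and -0.39 on another, and SLC16A10 gave 0.0013 and 0.45. MANF, a secreted stress protein, read 2956 in sh-BCLAF1-L cells and 2483 in sh-Luci cells, a difference of 0.25. DNAJB11, a co-chaperone of HSPA5, also differed by 0.25. SEL1L, EDEM1, SDF2L1 and PDIA3 differed by 0.20, 0.20, 0.17 and 0.15, although a further probe set of SEL1L gave -0.03 and of PDIA3 -0.10.

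The NRF2 and glutathione genes were included because NRF2 also induces SLC7A11, and CHAC1 consumes glutathione. Their median was -0.06 over 13 detected genes, with 4 above 0 and 9 below. Of all detected genes, 45.4% lay at or below 0.0013. GGCT, the cyclotransferase that acts downstream in the gamma-glutamyl cycle, read 1192 in sh-BCLAF1-L cells and 1573 in sh-Luci cells, a difference of -0.40 on its only probe set. OSGIN1 differed by 0.29 and GSS, glutathione synthetase, by 0.21, although the other GSS probe set gave -0.02. NQO1, a standard NRF2 target, differed by -0.17, with every one of its 3 probe sets between -0.17 and -0.12. GSR and TXNRD1 differed by 0.16 and -0.15, although the other GSR probe set gave -0.07.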

How the data were processed

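Probe set intensities were measured on 2 Affymetrix arrays, 1 per group, from biotinylated cRNA made from 200 ng of total RNA, per the labels. The authors deposited linear intensity values between 1 and 17349 for each probe set. RMA is named in the submitters' processing notes; for program, version and scaling the sources used here give nothing. The number of arrays limits the precision.

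Symbols came from the platform annotation (41097 probe sets with 1 symbol, 1801 with several, 11777 with none) and were updated by Entrez identifier in a RefSeq table, which held 41043 of the 41097. Calculations used Python 3.11.15, pandas 2.3.3, numpy 2.4.6 and statsmodels 0.14.6. The pseudocount was 1. The design had foreseen no test. The genes, lists and thresholds were chosen with earlier results of these data known. All 10 genes were named, BCLAF1, and up to 6 detected genes per list with the largest differences. Further light chains and transporters were named after their values were seen, as were HSP90B1, PDIA4, CANX, ATF5 and SLC16A10. Of the 158 genes, 8 had no probe set with 1 symbol and were not analysed here. The gene table and motif search were tested on simulated data. The alternatives are given in the closing section.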

Additional observations from a re-analysis of the deposited data

How the results depend on the processing

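No paired analysis was possible because there was a single array of each kind, which also leaves no replicate to drop. No gene of the 10 reached 1.5-fold under any of the 7 other settings of probe sets, filter, pseudocount or centring. With the processing as reported, 1 was higher and 2 lower at a log2 difference of 0.32. The median of the 10 genes, -0.0064 as reported, was -0.04 with the median over probe sets. It was 0.01 over the 7 genes that remained without _s_at, _x_at and _a_at probe sets. Across the 7 settings CEBPB stayed between 0.35 and 0.38, CHAC1 between -0.38 and -0.33 and SLC7A5 between -0.46 and -0.42; SLC7A5, SLC3A2 and ASNS gave no value without _s_at, _x_at and _a_at probe sets, where 7 genes remained. Of 67 values of the 10 genes, 66 moved by less than 0.16; the other was ASNS at -0.17 with the median over probe sets. ATF3 lay between -0.02 and 0.01 and kept its sign in 4 of 7 settings. The count of all genes at least 1.5-fold higher, 63 as reported, was 37 with the median over probe sets, 235 without a filter, 32 with a pseudocount of 32 and 34 when the filter was raised to the 60th percentile. The count at least 1.5-fold lower, 29 as reported, was 117 without a filter and 13 with a pseudocount of 32. At 0.32 the counts were 603 and 320, and at 2-fold 10 and 1. No filter admits dim probe sets and the larger pseudocount shrinks their differences; other causes were not tested.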
